A study of Rattus norvegicus with 24 samples.

Results

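The potassium channel genes are described here across the striatum and substantia nigra of a rat model of Parkinson's disease and of levodopa-induced dyskinesia, the involuntary movements that follow treatment with the dopamine precursor levodopa. Members are the genes whose symbol in the array's probe-set annotation begins with Kcn, taken only from probe sets that name 1 gene, and there were 87 of them among 16582 genes with a value. They rest on 682 probe sets, with a median of 6 and a range of 1 to 35 per gene. After the lowest 25% of genes by mean level in a tissue were left out, 71 members were tested in striatum and 75 in nigra: 70 in both, 1 in striatum only and 5 in nigra only, while 11 were in neither. At the edge of that filter in striatum, at a log2 level of 6.21, Kcnk10 stood just inside at a mean of 6.25 and Kcna7 just outside at 6.19. In nigra, where the filter lay at 6.44, Kcnk5 stood just inside at 6.59 and Kcnj15 just outside at 6.42.

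Messenger RNA was measured on exon-level Affymetrix arrays in tissue punches of adult male Sprague Dawley rats, on 12 arrays per tissue. Dyskinetic rats carried a lesion made with 6-hydroxydopamine, a toxin taken up by dopamine neurons that kills them, then received levodopa and developed dyskinesia. Non-dyskinetic rats were given the same toxin and the same drug and did not develop dyskinesia. Lesioned vehicle rats had the toxin and no levodopa, and intact rats were injected with saline in place of the toxin and did receive levodopa. Each group has 3 arrays in each tissue, 14 animals were used, and 10 of them gave both tissues. Levodopa exposure is therefore shared by every group except lesioned vehicle, and no group was both intact and without levodopa. The labels count a lesion as successful at over 90% loss of striatal dopamine, and they give neither the side sampled, the levodopa dose nor how long after the last dose the rats died.

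Potassium channels let potassium leave the cell, which sets the resting potential, ends the action potential and paces repetitive firing. Some pore-forming families respond to voltage (the Kv, EAG, ERG and KCNQ channels) or to calcium or sodium. The inward rectifiers pass current more readily inward than outward, and some are gated by G proteins. The 2-pore channels conduct near rest and respond to stretch, lipids and acidity. Silent Kv subunits form no channel alone and join other Kv subunits, and auxiliary subunits change how channels open or reach the membrane. Striatal projection neurons are held at a negative resting potential by inward rectifiers and A-type Kv channels, and nigral dopamine neurons pace themselves with A-type and calcium-activated channels and are slowed by G protein-gated inward rectifiers.

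The members comprise 14 Kv alpha, 10 silent Kv, 8 EAG and ERG, 3 KCNQ, 13 auxiliary, 11 calcium- or sodium-activated, 15 inward rectifier and 13 2-pore genes. All values are log2, a difference of 1 is a doubling, and ± gives the SD of 3 arrays after a mean and the standard error after a difference. Differences were fitted with limma over the 12 arrays of a tissue, with p adjusted by Benjamini and Hochberg over all 12436 genes tested there. A gene is said to have passed, risen or fallen where that adjusted p was under 0.05. Of the 76 members tested in either tissue, 36 passed in at least 1 of 6 comparisons per tissue: 21 in striatum, 24 in nigra and 9 in both. The other 40 passed in none. The share of all genes that passed in at least 1 comparison was not counted, so nothing is read from these counts. The striatal count includes Kcnk10, which the filter kept there only through its dyskinetic arrays.

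Marker genes set the groups apart. In nigra the mean of 11 dopamine neuron markers lay at 8.84 to 9.64 in dyskinetic, 9.55 to 9.83 in non-dyskinetic and 8.55 to 8.98 in lesioned vehicle rats, against 11.01 to 11.29 in intact rats. Striatal Fosb, a transcription factor gene switched on by neuronal activity, lay at 9.22 to 10.05 in dyskinetic rats and at 7.20 to 8.43 over the other 9 arrays. A pair of nigral arrays stands apart: lesioned vehicle array 1 in markers of striatal projection neurons (9.24, against 8.01 to 8.30 on the other 11 nigral arrays) and lesioned vehicle array 3 in cortical neuron markers (8.35, against 5.95 to 6.36). Only 2 of the 4 cortical markers had a value. In vehicle nigra they averaged 7.47 ± 1.99 (Slc17a7) and 6.25 ± 0.60 (Neurod6). Counts of members between vehicle and dyskinetic or intact nigra, and many of the gene results behind them, are therefore given with and without both arrays. Leaving out both leaves 1 vehicle array, and the share of all genes was not counted there. A lost call or a lower count can then come from fewer arrays alone. Results of non-dyskinetic against vehicle nigra, of marker lists and of other channel genes and partners are given with all arrays only. In bulk tissue, fewer cells of a type and less RNA per cell cannot be told apart.

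Promoter sequences are shown for 3 members that rose in dyskinetic striatum, among them Kcnj9 and Kcnj10, which are neighbours on chromosome 13 with 0 protein-coding genes between them. They are the 250 bases before the transcription start, 5′ to 3′ on the gene's strand, from RefSeq on assembly GRCr8: Kcnab3 on the plus strand at chr10:54546388-54546637, Kcnj9 on the minus strand at chr13:87320294-87320543, and Kcnj10 on the plus strand at chr13:87334260-87334509. Capitals mark TGACG, the core of the element bound by the cAMP-responsive factor CREB, and GGGCGG, the GC box, each searched on both strands.
Kcnab3: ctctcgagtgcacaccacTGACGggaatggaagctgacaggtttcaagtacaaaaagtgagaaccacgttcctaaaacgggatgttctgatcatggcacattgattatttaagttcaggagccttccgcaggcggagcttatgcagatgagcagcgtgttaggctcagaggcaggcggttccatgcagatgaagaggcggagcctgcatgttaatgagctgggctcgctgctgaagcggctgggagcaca
Kcnj9: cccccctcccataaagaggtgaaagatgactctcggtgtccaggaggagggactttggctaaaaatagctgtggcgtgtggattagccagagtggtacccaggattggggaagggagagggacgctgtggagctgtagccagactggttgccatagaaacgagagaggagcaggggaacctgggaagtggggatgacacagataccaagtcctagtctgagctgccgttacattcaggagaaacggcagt
Kcnj10: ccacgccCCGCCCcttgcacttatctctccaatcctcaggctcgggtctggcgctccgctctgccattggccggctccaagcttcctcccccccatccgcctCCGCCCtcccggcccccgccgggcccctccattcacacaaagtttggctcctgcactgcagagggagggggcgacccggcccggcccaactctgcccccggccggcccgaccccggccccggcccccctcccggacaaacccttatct
The Kcnab3 window holds TGACG once and no GGGCGG, the Kcnj9 window holds neither, and the Kcnj10 window holds GGGCGG at 2 places, both on the opposite strand. Guanine and cytosine make up 52.8% of the Kcnab3 window, 54.8% of the Kcnj9 window and 72.4% of the Kcnj10 window. Over 67 promoters of 61 member genes TGACG was in 19.4% and GGGCGG in 47.8%, against 18.2% and 30.5% of all 33469 promoters. The full CREB element TGACGTCA was in 0 of the 67 and in 1.59% of all promoters. The windows shown belong to 3 of 5 members with a promoter that were higher in dyskinetic than non-dyskinetic striatum. Of those 5, TGACG was in 1 and GGGCGG in 1. Of 4 members with a promoter that were lower, TGACG was in 0 and GGGCGG in 2. TGANTCA, the site of the AP-1 factors to which Fosb belongs, was in none of the 3 windows, in 2.99% of the member promoters and in 6.34% of all promoters. A match describes the letters and is not a binding site.

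The comparison of dyskinetic with non-dyskinetic striatum sets apart rats that were given the same toxin and drug and differ in the movements. The extent of the lesion may differ too. In nigra the dopamine neuron markers had a median difference of -0.51 between these groups, and 1 of 11 passed as lower in dyskinetic rats. Its part in the striatal differences was not tested. Here 13 of 71 members passed, 7 higher and 6 lower, or 18.3%, against 5.26% of all genes tested (3.06% higher, 2.2% lower). The 2-pore family had 4 members past the threshold of 12 tested, auxiliary subunits 3 of 10, Kv alpha subunits 3 of 13, inward rectifiers 2 of 10 and silent Kv subunits 1 of 8. Without Kcnk10, which passed the filter only through its dyskinetic arrays, 12 of 70 members passed (17.1%) and 3 of 11 in the 2-pore family. The EAG and ERG, KCNQ and calcium- or sodium-activated families had 0 of 6, 0 of 3 and 0 of 9, and their unadjusted p was under 0.05 for 0, 1 and 3 genes, against 21.3% of all genes. Members as a whole were not shifted one way: their median difference was -0.05, against -0.03 for all genes. Without dyskinetic array 2 the count fell to 5, and without dyskinetic array 1, non-dyskinetic array 3 or either of dyskinetic array 3 and non-dyskinetic array 2 it was 7, 7, 8 and 8. With the median over probe sets in place of the mean it was 7, and Kcnab3, Kcnc1, Kcne5, Kcnj9, Kcnj10, Kcnk1 and Kcnk2 no longer passed. Kcne5 is read by 1 probe set, so its own values were the same and only its adjusted p moved. The share of all genes under these settings was not counted, so a lower count does not show a lower share relative to all genes.

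**Figure D1:**
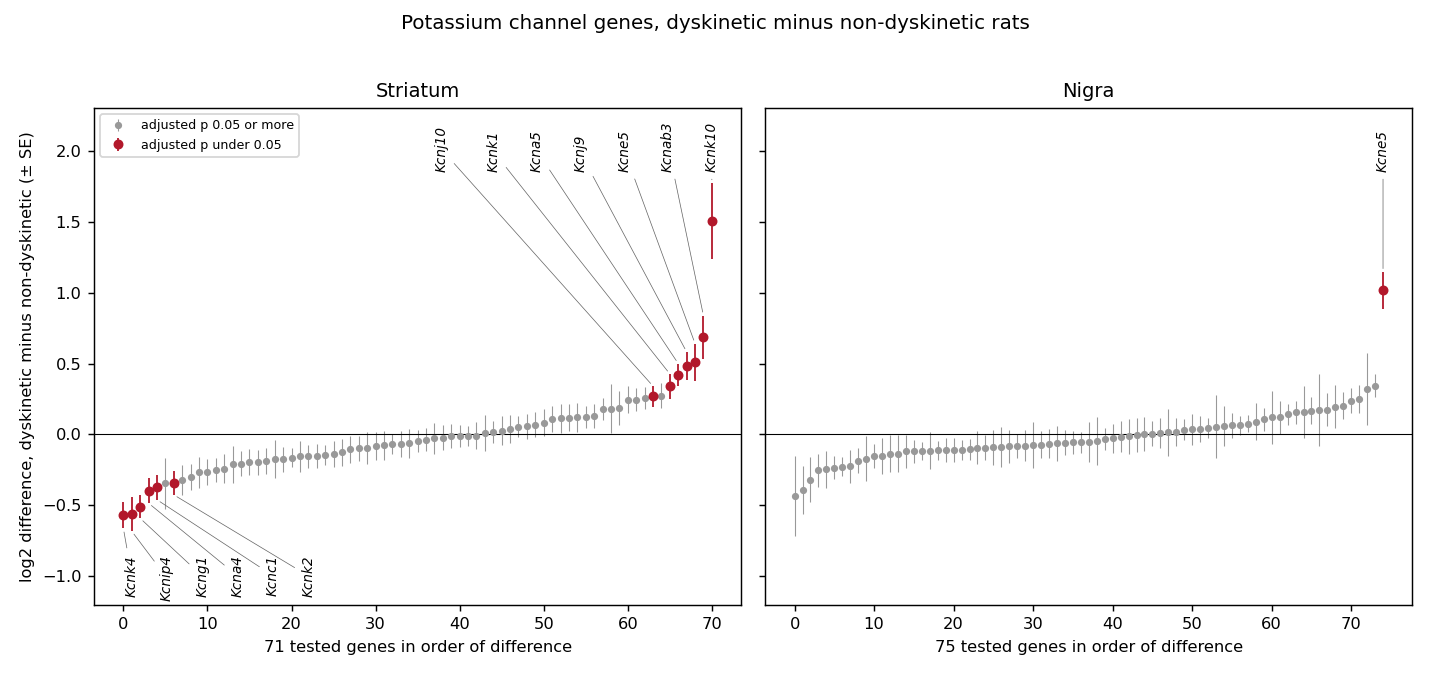
Log2 difference, dyskinetic minus non-dyskinetic, of every tested potassium channel gene in striatum (left, 71 genes) and nigra (right, 75 genes), in order of size with bars of 1 standard error; red points passed at adjusted p under 0.05 and are named. Kcnk10 stands at 1.50 in striatum and Kcne5 at 1.01 in nigra, where it is the 1 member that passed.

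Among the 2-pore genes, the 3 members of the TREK family, channels opened by stretch and fatty acids, moved in opposite directions. Kcnk10 had 7.83, 7.84 and 6.39 on the dyskinetic arrays, against 5.84, 5.77 and 5.93 on the non-dyskinetic, 5.84, 5.85 and 6.15 on the lesioned vehicle and 5.87, 5.83 and 5.81 on the intact arrays. Every dyskinetic array lay above all 9 others, and dyskinetic array 3 lay well below arrays 1 and 2. The difference by limma was 1.50 ± 0.27 from non-dyskinetic, 1.41 ± 0.27 from vehicle and 1.52 ± 0.27 from intact rats. All 9 of its probe sets were higher in dyskinetic than non-dyskinetic rats, by 0.55 to 2.70. The mean over the other 9 striatal arrays was 5.88, below the filter level, so this gene was tested only because of its dyskinetic arrays and had to differ there: the differences are a description, and it adds nothing to the counts of members that passed. With no filter, where it is tested whatever its level, adjusted p was 0.0043, 0.0057 and 0.0022 against non-dyskinetic, vehicle and intact rats. Dyskinetic array 3 was also the lowest of its group in the activity genes Fosb (10.05, 9.87 and 9.22 on arrays 1 to 3), Nr4a2 (11.02, 10.98 and 9.68) and Arc (11.82, 11.76 and 11.37); their part in the Kcnk10 difference was not tested.

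Kcnk4 had 8.01, 8.14 and 8.10 in dyskinetic striatum, against 8.75, 8.64 and 8.57 in non-dyskinetic, 8.44, 8.81 and 8.60 in lesioned vehicle and 8.87, 9.04 and 9.07 in intact striatum. Its dyskinetic arrays lay below every other array. It fell by 0.57 ± 0.09 from non-dyskinetic (limma, adjusted p = 0.0023), 0.53 ± 0.09 from vehicle (0.0031) and 0.91 ± 0.09 from intact rats (2.1e-05), and each call held without any 1 array. Kcnk2 had 9.86, 9.96 and 10.05 in dyskinetic striatum, against 10.16, 10.47 and 10.28 in non-dyskinetic, 10.36, 10.36 and 10.43 in lesioned vehicle and 10.32, 10.39 and 10.39 in intact striatum. The dyskinetic arrays were again the lowest of the 12. The fall was 0.34 ± 0.08 from non-dyskinetic (adjusted p = 0.024), 0.42 ± 0.08 from vehicle (0.0061) and 0.41 ± 0.08 from intact rats (0.0052). The first of these was lost without dyskinetic array 1 or 2 or non-dyskinetic array 2 or 3 (adjusted p up to 0.11), and with the median over probe sets in place of the mean it was -0.18 (adjusted p = 0.58).

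Kcnk1, a weakly conducting 2-pore channel, averaged 11.29 ± 0.07 in dyskinetic, 10.95 ± 0.04 in non-dyskinetic and 10.92 ± 0.12 in intact striatum. It was higher in dyskinetic than in non-dyskinetic rats by 0.34 ± 0.09 (limma, adjusted p = 0.037) and than in intact rats by 0.37 ± 0.09 (0.016), but the first call was lost on leaving out any 1 of the 6 arrays (adjusted p up to 0.12). Against vehicle the difference was 0.23 and did not pass. The second was lost without dyskinetic array 2 or 3 or intact array 1 or 3 (adjusted p up to 0.075).

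**Figure D2:**
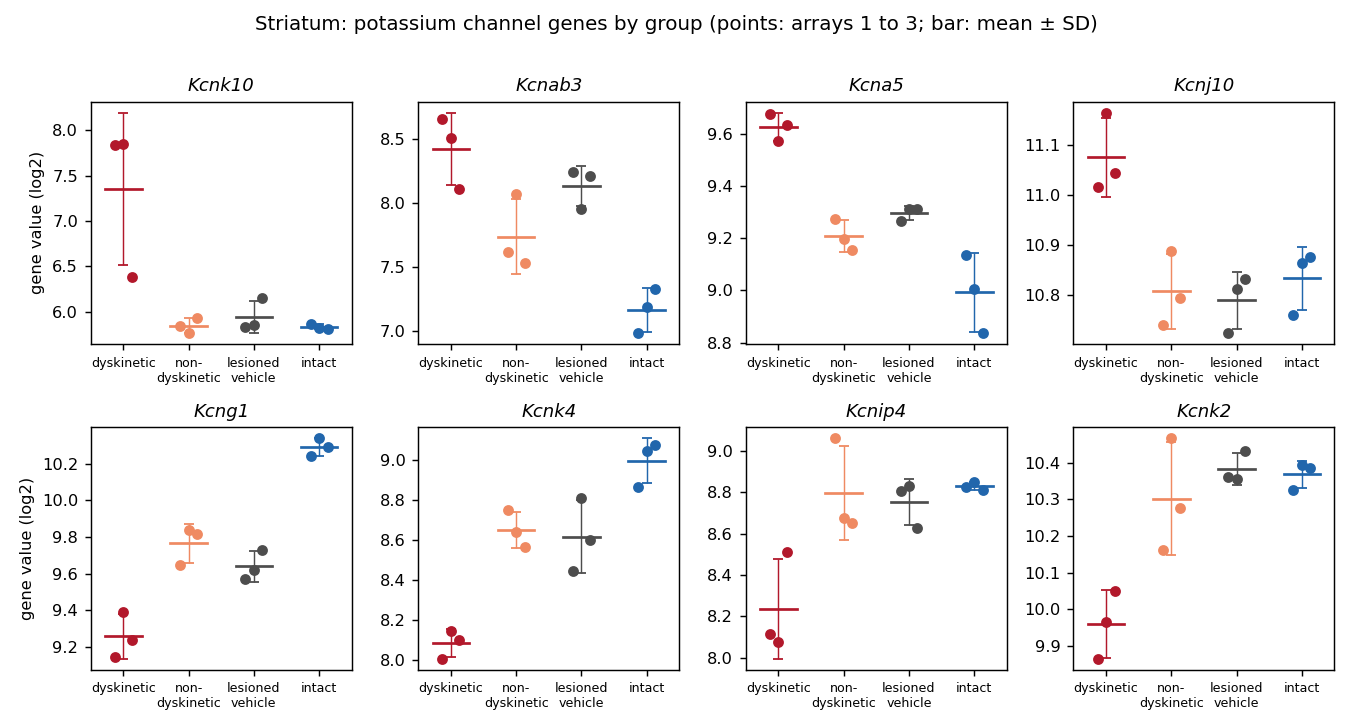
Log2 gene values on each of the 12 striatal arrays for 8 potassium channel genes, by group, with group mean ± SD; each panel has its own vertical scale. In the panels of Kcnk10, Kcna5 and Kcnj10 the 3 dyskinetic arrays lie above all others, and in those of Kcng1, Kcnk4, Kcnip4 and Kcnk2 below all others.

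Among voltage-gated subunits, Kcna5 and Kcna4 of the Shaker family differed in opposite directions. Kcna5, a delayed rectifier read by 1 probe set, had 9.68, 9.57 and 9.64 in dyskinetic striatum, against 9.28, 9.20 and 9.16 in non-dyskinetic, 9.27, 9.31 and 9.31 in lesioned vehicle and 9.14, 9.00 and 8.84 in intact striatum. All dyskinetic arrays lay above all others. The rise was 0.42 ± 0.08 over non-dyskinetic (limma, adjusted p = 0.0058), 0.33 ± 0.08 over vehicle (0.022) and 0.64 ± 0.08 over intact rats (0.00012); the vehicle call alone was lost without dyskinetic array 1 or 3 or vehicle array 1 or 2 (up to 0.089). Kcna4, an A-type subunit, had 9.53, 9.41 and 9.38 in dyskinetic striatum, against 9.87, 9.81 and 9.85 in non-dyskinetic, 9.71, 9.60 and 9.46 in lesioned vehicle and 9.76, 9.47 and 9.65 in intact striatum. Dyskinetic arrays fell by 0.40 ± 0.09 from non-dyskinetic ones (adjusted p = 0.015) and overlapped those of both other groups, from which the difference did not pass. That call was lost without dyskinetic array 2 or 3 or non-dyskinetic array 3 (up to 0.073).

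Kcnc1, the subunit of fast-spiking neurons, averaged 9.08 ± 0.08 in dyskinetic and 9.45 ± 0.16 in non-dyskinetic striatum, a fall of 0.37 ± 0.09 (limma, adjusted p = 0.021) that was lost without dyskinetic array 2 or 3 or non-dyskinetic array 2 (up to 0.11). Kcna3, a Shaker-family delayed rectifier read by 1 probe set, fell by 0.36 ± 0.09 from vehicle (adjusted p = 0.03) and 0.43 ± 0.09 from intact rats (0.0072). It had 9.01, 9.10 and 9.19 on the dyskinetic arrays, 9.45, 9.19 and 9.56 on the non-dyskinetic, 9.44, 9.41 and 9.53 on the vehicle and 9.56, 9.46 and 9.56 on the intact arrays. Its vehicle call was lost without dyskinetic array 1 or 2 or any 1 vehicle array (up to 0.12), and its intact call held. Kcnb2, a slow delayed rectifier, fell by 0.35 ± 0.11 from intact rats at an adjusted p of 0.049, lost without dyskinetic array 1 or 2 or intact array 1 or 2 (up to 0.19).

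The silent subunit Kcng1 was lowest in dyskinetic and highest in intact striatum. It had 9.15, 9.39 and 9.24 in dyskinetic, 9.64, 9.84 and 9.82 in non-dyskinetic, 9.57, 9.62 and 9.73 in lesioned vehicle and 10.24, 10.34 and 10.29 in intact rats. Dyskinetic arrays were the lowest, intact arrays the highest, and the arrays of the other groups overlapped each other in between. By limma it fell by 0.51 ± 0.08 from non-dyskinetic (adjusted p = 0.0019), 0.38 ± 0.08 from vehicle (0.013) and 1.03 ± 0.08 from intact rats (2.2e-06) in dyskinetic striatum. The vehicle call was lost without dyskinetic array 1 (-0.33, adjusted p = 0.067), and the others held without any 1 array. All 6 probe sets of the gene had the sign of the gene in each of these. Kcng3, another silent partner of Kv channels, fell by 0.42 ± 0.09 from vehicle (adjusted p = 0.015; lost without dyskinetic array 1 or vehicle array 3, up to 0.081) and 0.39 ± 0.09 from intact rats (0.014; lost without dyskinetic array 1 or intact array 1 or 2, up to 0.071).

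Of the auxiliary subunits, Kcnab3, a cytoplasmic beta subunit that joins Kv channels, was higher than in intact rats in dyskinetic and in lesioned vehicle striatum. It had 8.65, 8.51 and 8.11 in dyskinetic, 7.62, 8.07 and 7.53 in non-dyskinetic, 8.24, 7.96 and 8.21 in lesioned vehicle and 6.99, 7.19 and 7.33 in intact striatum. Arrays of all 3 lesioned groups lay above all intact ones, and dyskinetic arrays overlapped those of vehicle. The rise over intact rats was 1.26 ± 0.15 in dyskinetic (limma, adjusted p = 8.9e-05) and 0.97 ± 0.15 in vehicle rats (0.0073), and 0.57 ± 0.15 in non-dyskinetic rats did not pass (0.35). The rise of 0.69 ± 0.15 over non-dyskinetic rats (adjusted p = 0.016) was lost without dyskinetic array 1 or 2 or non-dyskinetic array 3 (up to 0.082), while all 14 probe sets had the same sign. Kcnab1, another beta subunit, fell by 0.38 ± 0.09 from intact rats in dyskinetic striatum (limma, adjusted p = 0.01). Its arrays did not overlap, as in 35 of 71 members and 4147 of 12436 genes.

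The KChIP genes encode calcium-binding proteins that carry A-type channels to the membrane. Kcnip4 had 8.12, 8.08 and 8.51 in dyskinetic striatum, against 9.06, 8.68 and 8.65 in non-dyskinetic, 8.80, 8.83 and 8.63 in lesioned vehicle and 8.82, 8.85 and 8.81 in intact striatum. Each dyskinetic array was below all others. It fell by 0.56 ± 0.12 from non-dyskinetic (limma, adjusted p = 0.013), 0.52 ± 0.12 from vehicle (0.02) and 0.59 ± 0.12 from intact rats (0.0056). The first call was lost without dyskinetic array 1 or 2 (up to 0.083), the second without those or vehicle array 1 or 2 (up to 0.11), and the third held. Kcnip3 had 10.01, 10.39 and 10.65 in dyskinetic, 10.61, 10.56 and 10.51 in non-dyskinetic, 10.69, 10.87 and 10.72 in lesioned vehicle and 10.98, 11.20 and 10.83 in intact striatum. It fell by 0.65 ± 0.13 from intact rats (adjusted p = 0.0051), while -0.21 ± 0.13 from non-dyskinetic rats did not pass (0.39).

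Both inward rectifiers that passed between dyskinetic and non-dyskinetic striatum were higher in dyskinetic rats. Kcnj9, a G protein-gated subunit, had 7.64, 7.48 and 7.28 in dyskinetic striatum, against 7.14, 6.83 and 6.97 in non-dyskinetic, 7.09, 7.30 and 7.19 in lesioned vehicle and 7.14, 7.08 and 7.13 in intact striatum. It was 0.48 ± 0.10 above non-dyskinetic rats (limma, adjusted p = 0.0098; 0.051 without non-dyskinetic array 2) and 0.35 ± 0.10 above intact rats (0.036; up to 0.15 and lost without any 1 array other than dyskinetic array 3). Kcnj10, the potassium-buffering channel of astrocytes, had 11.02, 11.16 and 11.04 in dyskinetic striatum, against 10.74, 10.89 and 10.79 in non-dyskinetic, 10.72, 10.81 and 10.83 in lesioned vehicle and 10.76, 10.87 and 10.88 in intact striatum. Its dyskinetic arrays were the highest of the 12, with rises of 0.27 ± 0.07 (adjusted p = 0.046), 0.29 ± 0.07 (0.033) and 0.24 ± 0.07 (0.048) over non-dyskinetic, vehicle and intact rats. The first and last were lost on leaving out any 1 of their 6 arrays (up to 0.22 and 0.19), and the vehicle call without any 1 array other than vehicle array 3 (up to 0.16). The mean of 4 astrocyte markers ran from 11.50 to 11.61 in dyskinetic and 11.23 to 11.66 in non-dyskinetic striatum, and none of the 4 passed between them.

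Of the rectifiers that hold projection neurons at rest, Kcnj4 and Kcnj2 passed in 1 striatal comparison between them. Kcnj4 averaged 9.50 ± 0.06 in dyskinetic, 9.64 ± 0.13 in non-dyskinetic, 9.61 ± 0.16 in lesioned vehicle and 9.68 ± 0.07 in intact striatum and passed in no comparison. Kcnj2, read by 1 probe set, averaged 8.83 ± 0.20 in dyskinetic and 9.20 ± 0.15 in intact striatum, a fall of 0.37 ± 0.11 (limma, adjusted p = 0.045) lost without any 1 array other than dyskinetic array 3 (up to 0.19). The M-current gene Kcnq3 averaged 10.15 ± 0.09 in dyskinetic and 10.35 ± 0.19 in non-dyskinetic striatum and did not pass (adjusted p = 0.22). No marker of projection neurons passed between dyskinetic and non-dyskinetic striatum (0 of 9), with list means of 11.48 to 11.55 against 11.46 to 11.59. Of the other marker lists, 2 of 8 dopamine neuron markers, Th and Nr4a2, and 1 of 2 choroid plexus markers were higher in dyskinetic striatum, and their part was not tested.

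Kcne5, a small single-span auxiliary subunit read by 1 probe set, was higher in dyskinetic rats in both tissues. In striatum it had 9.64, 9.30 and 9.38 in dyskinetic, 9.18, 8.84 and 8.77 in non-dyskinetic, 9.10, 9.07 and 9.23 in lesioned vehicle and 9.13, 8.66 and 9.10 in intact rats. In nigra it had 10.81, 10.70 and 10.62 in dyskinetic, 9.77, 9.78 and 9.54 in non-dyskinetic, 9.06, 8.95 and 9.04 in lesioned vehicle and 9.54, 9.39 and 10.00 in intact rats. Dyskinetic arrays lay above all others in both tissues, and nigral vehicle arrays lay below all others. The striatal rise over non-dyskinetic rats was 0.51 ± 0.13 (limma, adjusted p = 0.035), lost without any 1 array other than non-dyskinetic array 1 (up to 0.14), and that over intact rats 0.48 ± 0.13 (0.031), lost without dyskinetic array 1 or intact array 2 (up to 0.15). Against striatal vehicle it was 0.31 ± 0.13 and did not pass (0.22). In nigra it was 1.01 ± 0.13 over non-dyskinetic (adjusted p = 0.01; 0.96 and 0.051 without dyskinetic array 1), 1.70 ± 0.13 over vehicle (0.00011) and 1.07 ± 0.13 over intact rats (0.00018). The rise over vehicle was 1.76 without vehicle arrays 1 and 3 (0.0053). Dyskinetic arrays 2 and 3 of each tissue came from the same rats, and array 1 from a different rat in each.

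**Figure D3:**
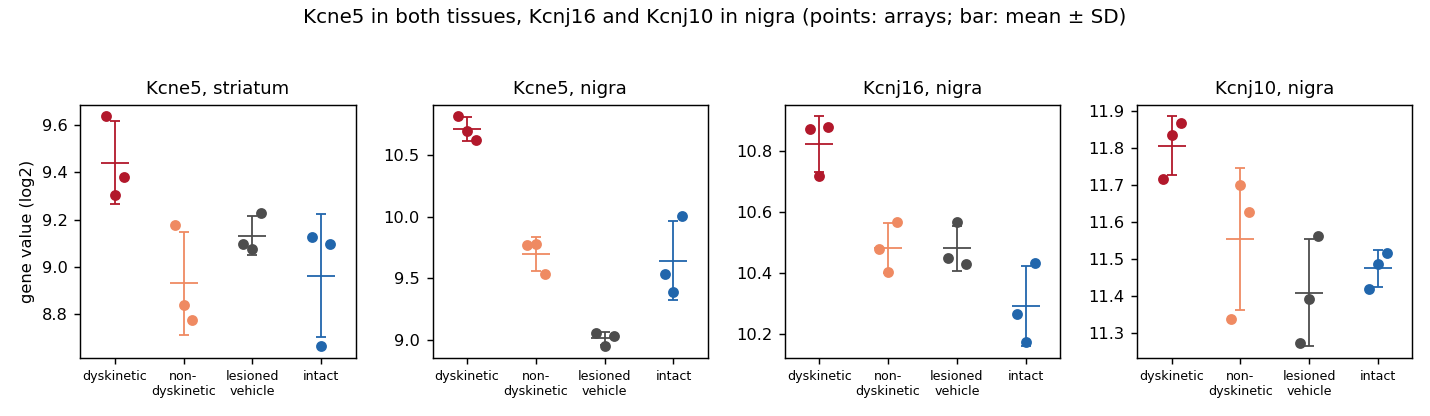
Log2 gene values of Kcne5 on the striatal and nigral arrays and of Kcnj16 and Kcnj10 on the nigral arrays, by group, with group mean ± SD; each panel has its own vertical scale. The 3 dyskinetic arrays are the highest of the 12 in all 4 panels, and nigral Kcne5 is lowest in the lesioned vehicle rats.

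Against lesioned vehicle striatum, 9 of 71 members (12.7%) passed in dyskinetic rats, 3 higher and 6 lower, against 5.18% of all genes (3.63% higher, 1.55% lower), or 8 of 70 without Kcnk10. In the same comparison 2 of 5 oligodendrocyte and 1 of 5 striatal interneuron markers were lower, and 2 of 9 projection neuron, 2 of 8 dopamine neuron and 1 of 2 choroid plexus markers were higher; their part was not tested. Leaving out dyskinetic array 1 brought the count to 3, and vehicle array 1 or 2 to 5. With the median over probe sets it was 4, and Kcna3, Kcna5, Kcng1, Kcnj10 and Kcnk2 no longer passed. Kcna3 and Kcna5 are read by 1 probe set each, so their own values were the same there. The share of all genes was again not counted under these settings. Dyskinetic striatum was higher than each of the other 3 groups in Kcna5, Kcnj10 and Kcnk10 and lower than each in Kcng1, Kcnip4, Kcnk2 and Kcnk4. These comparisons share the dyskinetic arrays and are not independent of each other.

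Non-dyskinetic and lesioned vehicle rats differ in levodopa without dyskinesia, and the extent of the lesion may differ too. In nigra the mean of 11 dopamine neuron markers lay at 9.55 to 9.83 in non-dyskinetic and 8.55 to 8.98 in vehicle rats. These markers had a median difference of 0.83, 0 of 11 passed, and their part was not tested. In striatum the 2 groups gave 0 of 71 members by limma, against 0.0322% of all genes. At an unadjusted p under 0.05 there were 8 members (11.3%), against 6.7% of all genes. The 3 highest statistics were those of Kcna4 (0.25 ± 0.09, adjusted p = 0.63), Kcnip2 (0.16 ± 0.07, 0.74) and Kcnc1 (0.19 ± 0.09, 0.74), and the 3 lowest those of Kcnab3 (-0.40 ± 0.15, 0.69), Kcnn1 (-0.19 ± 0.08, 0.74) and Kcnj8 (-0.24 ± 0.11, 0.74). Kcna4 arrays did not overlap, at 9.84 ± 0.03 in non-dyskinetic and 9.59 ± 0.13 in vehicle striatum. The same held for 8 of 71 members and 1249 of 12436 genes.

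The lesion itself was compared in rats that differ also in levodopa: 3 of 71 members (4.23%) passed between lesioned vehicle and intact striatum, against 0.442% of all genes. Kcnab3 was higher, as given above, and Kcng1 fell by 0.65 ± 0.08 (limma, adjusted p = 0.0014). Kcnh5, an EAG channel, had 8.72, 8.84 and 8.66 in vehicle and 8.33, 8.08 and 8.02 in intact striatum. Kcnh5 did not overlap between these groups, as in 17 of 71 members and 1844 of 12436 genes. Its rise of 0.60 ± 0.12 (adjusted p = 0.047) was lost without any 1 array other than intact array 1 (up to 0.27). Non-dyskinetic against intact striatum gave 1 of 71 (1.41%, against 0.0482% of all genes). That was Kcng1, which fell by 0.52 ± 0.08 (0.043), lost without any 1 array other than non-dyskinetic array 2 (up to 0.25). The 3 highest statistics were those of Kcnh5 (0.49 ± 0.12, 0.33), Kcnab3 and Kcna5 (0.22 ± 0.08, 0.53), and after Kcng1 the lowest were those of Kcnk4 (-0.34 ± 0.09, 0.37) and Kcnip3 (-0.44 ± 0.13, 0.44).

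Dyskinetic against intact striatum gave 19 of 71 members (26.8%), 9 higher and 10 lower, against 10.3% of all genes (5.11% higher, 5.19% lower), or 18 of 70 without Kcnk10. Beside those given above, Kcnh5 averaged 8.82 ± 0.24 in dyskinetic and 8.14 ± 0.16 in intact striatum (0.67 ± 0.12, limma, adjusted p = 0.0023). Kcnn1, a small-conductance calcium-activated channel, averaged 8.65 ± 0.11 in dyskinetic and 8.28 ± 0.06 in intact striatum (0.37 ± 0.08, 0.0085). The small-conductance gene Kcnn3 averaged 9.93 ± 0.09 in dyskinetic and 9.88 ± 0.06 in intact striatum and passed in no striatal comparison, nor did the A-type gene Kcnd3.

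Genes of other channels gave a point of comparison. Between dyskinetic and non-dyskinetic striatum, 0 of 7 tested sodium channel genes with a symbol beginning Scn and 1 of 23 calcium channel genes beginning Cacn passed, namely Cacna1h (4.35%), against 5.26% of all genes. Of 24 genes for proteins that bind or modify potassium channels, Kctd12 was higher (0.43 ± 0.11, limma, adjusted p = 0.034) and Kctd16 fell by 0.27 ± 0.07 (0.042), or 8.33% of the list, both of them subunits of GABA-B receptors that act on G protein-gated rectifiers. Lrrc52, an auxiliary subunit of large-conductance channels, was higher in dyskinetic than in vehicle (0.33 ± 0.08, 0.025) and intact striatum (0.35 ± 0.08, 0.013). Unequal counts between such lists were not tested.

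Intact nigra was set against each lesioned group. Members past the threshold numbered 17 of 75 in dyskinetic (5 higher, 12 lower), 8 in non-dyskinetic (all lower) and 17 in lesioned vehicle rats (7 higher, 10 lower). That is 22.7%, 10.7% and 22.7%, against 16.1%, 4.7% and 12.8% of all genes. By direction, 5.52% of all genes were higher and 10.5% lower in dyskinetic, 3.97% lower in non-dyskinetic, and 5.52% higher and 7.26% lower in vehicle nigra. Kcna3, Kcnb2, Kcng3, Kcnip3, Kcnj6, Kcnn3 and Kcns3 fell in all 3 lesioned groups. These share the same intact arrays. Of the 11 dopamine neuron markers, 11, 10 and 11 were lower than in intact rats in the dyskinetic, non-dyskinetic and vehicle groups, and their part in the falls of channel genes was not tested.

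Kcnj6, the G protein-gated rectifier through which dopamine autoreceptors slow dopamine neurons, had 7.22, 7.65 and 7.45 in dyskinetic, 8.04, 7.94 and 7.53 in non-dyskinetic and 7.48, 7.28 and 7.82 in vehicle nigra, against 8.93, 9.34 and 8.95 in intact nigra. Every lesioned array lay below every intact one. It fell by 1.63 ± 0.17 in dyskinetic (limma, adjusted p = 6.6e-05), 1.24 ± 0.17 in non-dyskinetic (0.00099) and 1.55 ± 0.17 in vehicle rats (9.7e-05). All 9 probe sets were lower in each group. In striatum the gene lay below the filter, at 5.88 to 6.11 over the 12 arrays, and was not tested.

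Kcnn3, the calcium-activated channel of the dopamine neuron's afterhyperpolarisation, had 8.76, 8.96 and 9.21 in dyskinetic, 9.08, 9.06 and 8.94 in non-dyskinetic and 9.04, 8.70 and 8.92 in vehicle nigra, against 10.10, 10.66 and 10.39 in intact nigra. Lesioned groups overlapped each other and lay below intact rats by 1.41 ± 0.14 (dyskinetic; limma, adjusted p = 5.7e-05), 1.36 ± 0.14 (non-dyskinetic; 0.00019) and 1.50 ± 0.14 (vehicle; 3.1e-05). Its relatives went the other way or did not pass. Kcnn1 was higher than in intact rats in vehicle (0.38 ± 0.08, 0.0079) and dyskinetic nigra (0.26 ± 0.08, 0.042; lost without any 1 of the 6 arrays, up to 0.15). Kcnn2 was higher in vehicle nigra (0.26 ± 0.07, 0.025), a call lost without vehicle array 1 or 3 or intact array 2 or 3 (up to 0.12). Without vehicle arrays 1 and 3 together the vehicle differences of Kcnn1 and Kcnn2 were 0.54 and 0.21. Kcnt2, a sodium-activated channel, fell by 0.48 ± 0.09 in dyskinetic (0.0026) and 0.37 ± 0.09 in non-dyskinetic nigra (0.026; lost without any 1 array other than non-dyskinetic array 1, up to 0.12).

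**Figure D4:**
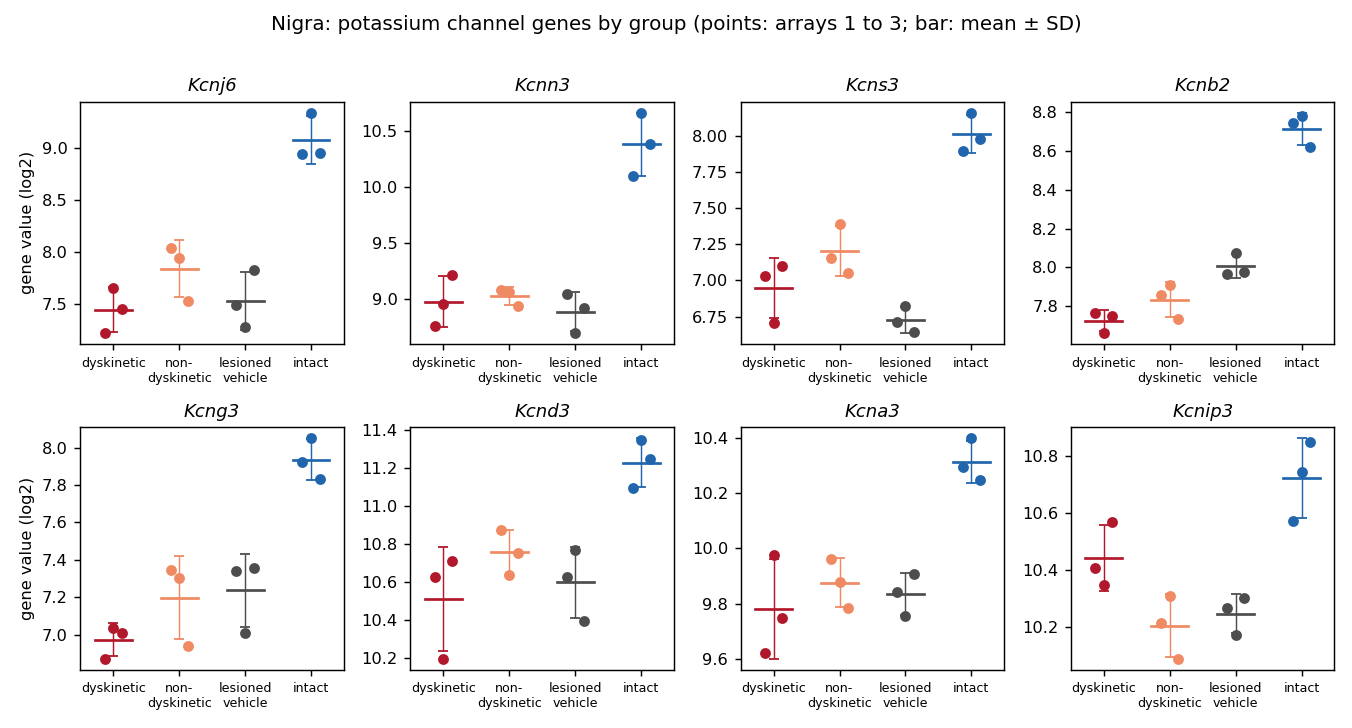
Log2 gene values on each of the 12 nigral arrays for 8 potassium channel genes, by group, with group mean ± SD; each panel has its own vertical scale. In every panel except that of Kcnip3 the 3 intact arrays lie above all 9 lesioned arrays.

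The silent subunit Kcns3 had 7.03, 6.71 and 7.10 in dyskinetic, 7.16, 7.39 and 7.05 in non-dyskinetic and 6.71, 6.82 and 6.65 in vehicle nigra, against 7.90, 8.16 and 7.98 in intact nigra. Kcnb2, a delayed rectifier with which silent subunits assemble, had 7.77, 7.66 and 7.75 in dyskinetic, 7.86, 7.91 and 7.73 in non-dyskinetic and 7.97, 8.08 and 7.98 in vehicle nigra, against 8.74, 8.78 and 8.62 in intact nigra. Lesioned and intact arrays did not overlap in either gene. Kcns3 fell by 1.07 ± 0.11, 0.81 ± 0.11 and 1.29 ± 0.11 and Kcnb2 by 0.99 ± 0.07, 0.88 ± 0.07 and 0.71 ± 0.07 in dyskinetic, non-dyskinetic and vehicle rats (limma, adjusted p from 7.1e-06 to 0.0011). The silent subunit Kcng3 fell alongside, by 0.96 ± 0.12, 0.74 ± 0.12 and 0.70 ± 0.12 in the same order, with 5 of its 6 probe sets lower in each. Not all silent subunits did so: Kcns1 was higher in dyskinetic than intact nigra (0.28 ± 0.08, adjusted p = 0.037), lost without any 1 of the 6 arrays (up to 0.12).

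The A-type gene Kcnd3, which sets the pacing of dopamine neurons with its partner Kcnip3, had 10.62, 10.19 and 10.71 in dyskinetic, 10.88, 10.64 and 10.75 in non-dyskinetic and 10.63, 10.77 and 10.40 in vehicle nigra, against 11.09, 11.35 and 11.25 in intact nigra. All lesioned arrays were below all intact ones. It fell by 0.72 ± 0.13 in dyskinetic (limma, adjusted p = 0.0031) and 0.63 ± 0.13 in vehicle rats (0.0085). Non-dyskinetic nigra averaged 10.76 ± 0.12 against 11.23 ± 0.13 in intact nigra, and the difference of -0.47 did not pass. Without vehicle arrays 1 and 3 the vehicle difference was -0.46 (0.18). Kcnip3 had 10.41, 10.35 and 10.57 in dyskinetic, 10.22, 10.31 and 10.09 in non-dyskinetic and 10.27, 10.17 and 10.30 in vehicle nigra, against 10.57, 10.74 and 10.85 in intact nigra. It fell by 0.52 ± 0.09 in non-dyskinetic (0.0043), 0.47 ± 0.09 in vehicle (0.0043) and 0.28 ± 0.09 in dyskinetic rats (0.047), the last lost without dyskinetic array 1 or 2 or intact array 2 or 3 (up to 0.16).

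Kcna3 fell by 0.53 ± 0.09 in dyskinetic (limma, adjusted p = 0.0018), 0.44 ± 0.09 in non-dyskinetic (0.013; lost without non-dyskinetic array 3 or intact array 2, up to 0.08) and 0.48 ± 0.09 in vehicle nigra (0.0044), where intact nigra averaged 10.31 ± 0.08. Kcnk4 averaged 8.75 ± 0.15 in dyskinetic and 8.74 ± 0.21 in vehicle nigra, against 9.27 ± 0.11 in intact nigra. It fell by 0.52 ± 0.12 in dyskinetic (0.01; lost without dyskinetic array 1 or intact array 2, up to 0.055) and 0.53 ± 0.12 in vehicle rats (0.012; lost without intact array 2, 0.065, and -0.39 with 0.17 without vehicle arrays 1 and 3). Kcnh2, the ERG channel, fell by 0.26 ± 0.08 (0.048) and Kcnmb4, the neuronal beta subunit of large-conductance channels, by 0.40 ± 0.13 (0.048) in dyskinetic nigra, both lost without any 1 of the 6 arrays (up to 0.17 and 0.16).

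Kcnj16 and Kcnj10, rectifiers found in glia, were higher in dyskinetic than in intact nigra. Kcnj16, which joins Kcnj10 in one channel and is read by 1 probe set, had 10.87, 10.72 and 10.88 in dyskinetic nigra, against 10.48, 10.40 and 10.57 in non-dyskinetic, 10.45, 10.57 and 10.43 in lesioned vehicle and 10.27, 10.17 and 10.43 in intact nigra. Its dyskinetic arrays were the highest of the 12. The rise over intact rats was 0.53 ± 0.08 (limma, adjusted p = 0.00086) and held without any 1 array. Against vehicle it was 0.34 ± 0.08 (0.048; lost without any 1 array other than vehicle array 2, up to 0.18, and 0.26 with 0.69 without vehicle arrays 1 and 3), and 0.34 ± 0.08 against non-dyskinetic rats did not pass (0.11). Kcnj10 had 11.72, 11.83 and 11.87 in dyskinetic and 11.42, 11.49 and 11.52 in intact nigra, a rise of 0.33 ± 0.10 (0.036) lost without any 1 of the 6 arrays (up to 0.12). Astrocyte markers averaged 12.12 to 12.23 in dyskinetic and 12.10 to 12.14 in intact nigra, and none of the 4 passed. Other lists did move between these groups: 3 of 6 microglia, 2 of 5 oligodendrocyte and 1 of 4 endothelium markers were higher, with list means of 9.74 to 10.02 in dyskinetic and 9.42 to 9.57 in intact nigra for microglia; their part was not tested. In striatum Kcnj16 lay below the filter.

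Between dyskinetic and non-dyskinetic nigra, Kcne5 was the 1 of 75 members that passed (1.33%, against 0.241% of all genes). With Kcne5, the 3 highest statistics were those of Kcnj16, given above, and Kcnip3 (0.24 ± 0.09, limma, adjusted p = 0.24), and the 3 lowest those of Kcnn2 (-0.23 ± 0.07, 0.17), Kcnj14 (-0.23 ± 0.08, 0.23) and Kcnj6 (-0.39 ± 0.17, 0.31). Beside these, dopamine neuron markers had a median difference of -0.51 between the 2 groups and 1 of 11 passed as lower in dyskinetic rats.

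Results that rest on lesioned vehicle nigra included genes high on its arrays 1 and 3, the ones with striatal or cortical markers. Kcnq5, a KCNQ subunit, had 8.46, 7.79 and 8.37 on vehicle arrays 1 to 3, against 7.67, 7.31 and 7.40 on the intact arrays. Kcnh3, an EAG-family channel of the forebrain, had 7.82, 6.87 and 7.69, against 6.78, 6.94 and 6.71. Kcnv1, a silent subunit, had 7.61, 6.83 and 7.55, against 6.67, 6.87 and 6.70. In all of these vehicle arrays 1 and 3 lay above the intact arrays. Vehicle array 2 lay within their range for Kcnh3 and Kcnv1 and above it for Kcnq5. It was also above it for Kcnip2, at 9.07, 8.58 and 9.17 in vehicle and 8.51, 8.52 and 8.46 in intact nigra.

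With all arrays these genes were higher in vehicle than in intact nigra, Kcnq5 by 0.75 ± 0.15 (limma, adjusted p = 0.0076), Kcnh3 by 0.65 ± 0.19 (0.038), Kcnv1 by 0.58 ± 0.16 (0.033) and Kcnip2 by 0.44 ± 0.12 (0.028). The calls of Kcnh3, Kcnv1 and Kcnip2 were lost without any 1 array other than vehicle array 2 (up to 0.13). Without arrays 1 and 3 the differences were 0.33 (0.25), 0.06 (0.85), 0.09 (0.78) and 0.09 (0.68), the 1 vehicle array left being taken to vary like the other groups. Kcna1, a Shaker-family subunit, was 0.35 ± 0.09 higher (0.02; lost without intact array 2, 0.1, and 0.36 with 0.16 without both vehicle arrays). Kcne5 fell by 0.63 ± 0.13 (0.0077), and by 0.69 without both arrays (0.064). The vehicle against intact count was 17 with all arrays and 8 without both: Kcna3, Kcnb2, Kcng3, Kcnip3, Kcnj6, Kcnn1, Kcnn3 and Kcns3.

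**Figure D5:**
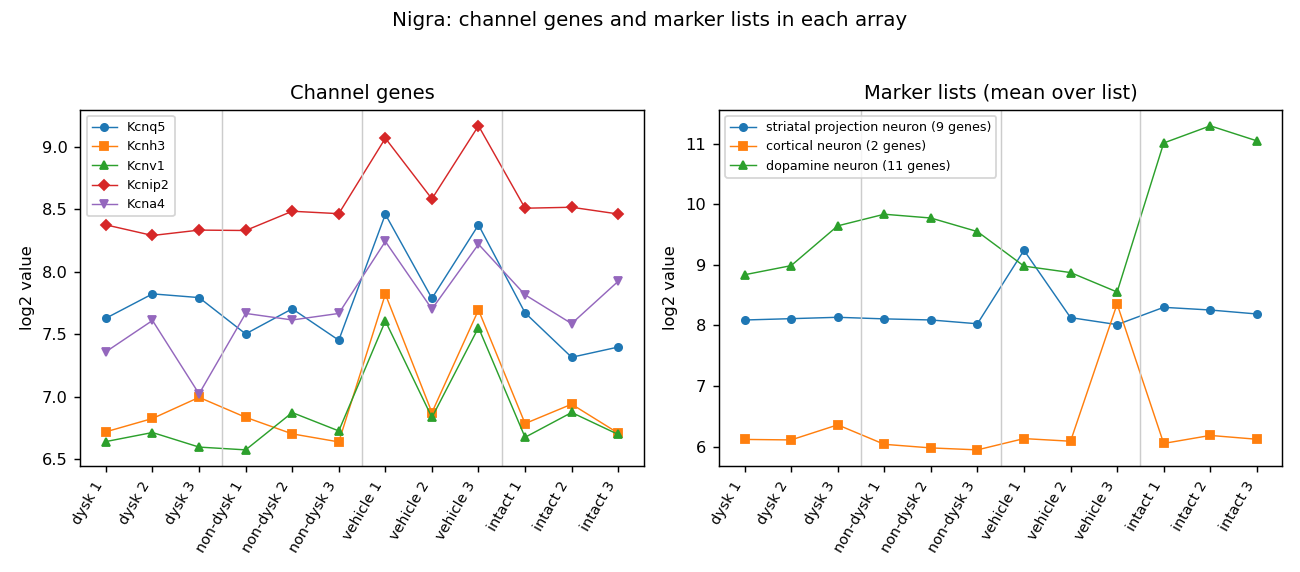
Log2 values on each of the 12 nigral arrays, of 5 channel genes (left) and of the mean of 3 marker lists (right), with vertical lines between groups. The channel genes are high on lesioned vehicle arrays 1 and 3, the striatal projection neuron list on vehicle array 1 (9.24), the cortical list on vehicle array 3 (8.35), and the dopamine neuron list on the 3 intact arrays.

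Dyskinetic against vehicle nigra gave 7 of 75 members (9.33%), 2 higher and 5 lower, against 2.22% of all genes (0.764% higher, 1.46% lower). Kcne5 and Kcnj16 are given above. The 5 lower were Kcna4, by 0.72 ± 0.16 (limma, adjusted p = 0.041), Kcnv1, by 0.68 ± 0.16 (0.049), Kcnip2, by 0.61 ± 0.12 (0.027), Kcnt2, by 0.37 ± 0.09 (0.048), and Kcnn2, by 0.29 ± 0.07 (0.048). Without vehicle arrays 1 and 3, which leaves 1 vehicle array, these differences were -0.37, -0.18, -0.25, -0.47 and -0.23 in the same order. That of Kcnt2 was larger than with all arrays, and those of the other genes were smaller, least so for Kcnn2. Each of the 5 calls was lost without vehicle array 1 or 3 alone and without dyskinetic array 1 or 3 alone (up to 0.17). Non-dyskinetic against vehicle nigra gave 0 of 75 by limma, against 0.0% of all genes, and 17 at an unadjusted p under 0.05 (22.7%), against 8.03% of all genes. Its 3 highest statistics were those of Kcne5 (0.68 ± 0.13, limma, adjusted p = 0.12), Kcns3 (0.47 ± 0.11, 0.31), Kcnj14 (0.23 ± 0.08, 0.54), and its 3 lowest those of Kcnip2 (-0.51 ± 0.12, 0.26), Kcnq5 (-0.66 ± 0.15, 0.28) and Kcnh3 (-0.74 ± 0.19, 0.33). Kcnip2, Kcnq5 and Kcnh3 were among the genes high on vehicle arrays 1 and 3, and these values include both arrays. Dopamine neuron markers had a median difference of 0.83 between non-dyskinetic and vehicle nigra with all arrays. Of these markers 0 of 11 passed, and their part was not tested.

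Other channel genes are set beside the all-gene shares lower in dyskinetic, non-dyskinetic and vehicle nigra of 10.5%, 3.97% and 7.26%. Vehicle results here include vehicle arrays 1 and 3. Of the Cacn genes, 12, 9 and 8 of 22 were lower than in intact rats in dyskinetic, non-dyskinetic and vehicle nigra, and of the Scn genes 3 of 8 in each, with 1 higher in vehicle. Of 24 potassium channel partners 7, 2 and 3 were lower and 1 was higher in vehicle rats, with 8.33% of the list called in non-dyskinetic nigra. Among them, Dpp6, which joins A-type channels, fell by 0.35 ± 0.07 in dyskinetic (limma, adjusted p = 0.0045) and 0.31 ± 0.07 in vehicle nigra (0.01). Lrrc55, an auxiliary subunit of large-conductance channels, fell by 0.94 ± 0.20 (0.0069) and 0.80 ± 0.20 (0.02) in the same groups. Nedd4l, a ubiquitin ligase that removes channels from the membrane, fell by 0.55 ± 0.11 in dyskinetic (0.0061) and 0.50 ± 0.11 in non-dyskinetic nigra (0.023).

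Whether a difference itself differed between the tissues was tested on the 24 arrays together, each rat being a random block. For dyskinetic against non-dyskinetic rats 1 of 70 members passed (1.43%, against 1.47% of all genes), namely Kcnk10, which the striatal filter had kept only through its dyskinetic arrays, so nothing is read from the count. It was 1.50 in striatum and 0.00 in nigra, where it had 7.00, 7.29 and 6.98 in dyskinetic and 7.24, 7.21 and 6.83 in non-dyskinetic rats. The tissues differed by 1.48 ± 0.30 (limma, adjusted p = 0.0093; 0.013 with no filter, 1.23 and 0.058 without striatal dyskinetic array 2, and 0.083 with only the 12 arrays of those groups). For Kcnab3 (0.86 ± 0.23, adjusted p = 0.061), Kcnk2 (-0.46 ± 0.13, 0.1) and Kcne5 (-0.51 ± 0.18, 0.2) the difference between tissues did not pass.

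For lesioned vehicle against intact rats 13 of 70 members passed (18.6%, against 5.72% of all genes, 3.91% and 1.81% by direction), 7 with a more positive difference in striatum and 6 in nigra, and 5 did so without nigral vehicle arrays 1 and 3. Those 5 were Kcnn3, Kcng3, Kcnb2, Kcne5 and Kcng1. Kcnn3 differed by 0.00 in striatum and -1.50 in nigra, a gap of 1.51 ± 0.16 (limma, adjusted p = 1.4e-06). Kcng1 differed by -0.65 in striatum and 0.44 in nigra, a gap of -1.09 ± 0.19 (0.00052), or -0.80 (0.019) without those arrays.

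Levels in intact rats set the tissues side by side as a description only. Array medians over all probe sets were 7.90 to 7.98 in striatum and 8.21 to 8.32 in nigra and the tissues appear to have been normalised apart, so each gene's gap is given less the median gap of all genes, which was -0.25. By that measure 18.4% of members lay over 2 from it, against 1.71% of all genes, 11 of them higher in striatum and 5 in nigra. Kcnv1 (3.34), Kcnq5 (3.33), Kcnab1 (3.28), Kcnh3 (3.16) and Kcnj4 (3.04) were furthest towards striatum. Kcnj16 (-4.62), Kcnc2 (-3.35), Kcnd3 (-3.04), Kcnj6 (-2.89) and Kcnab3 (-2.29) were the 5 towards nigra. Striatal Kcnj16 and Kcnj6 lay below the filter level, at 5.43 and 5.94, so their gaps are not exact sizes. Kcnq5, Kcnh3 and Kcnv1 were high in striatum and also high on nigral vehicle arrays 1 and 3, as were Kcng1 and Kcna4 (2.05 and 2.10). In the striatal projection neuron list only vehicle array 1 was high (9.24), and vehicle array 3 was the lowest nigral array (8.01). Whether striatal tissue had a part in these values was not tested.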

How the data were processed

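The deposited values are log2 values made by the authors with RMA in oligo 1.34 under R 3.2.3, per the submitters' processing notes; the genome build is not given in the sources used here. From 213067 probe sets, 172924 that name 1 gene were averaged per gene, after symbols were updated with the RefSeq genes of GRCr8 (85 member symbols were current and 2 were updated). No file column was left without a sample. Each array gives 1 value per probe set, so the number of arrays limits the precision. Group differences were fitted with limma 3.58.1 (lmFit and eBayes, R 4.3.3) over 12 arrays of a tissue with 1 mean per group. Tissue differences used 24 arrays, 12114 genes with a random block per rat (correlation 0.155). The fit was tested on simulated data. Members and lists were chosen with earlier results of these data known. Named are, per comparison, up to 10 rises and 10 falls past the threshold, or with fewer than 3 such genes the 3 highest and 3 lowest statistics, and 10 genes always (Kcnj6, Kcnn3, Kcnd3, Kcnip3, Kcnj2, Kcnj4, Kcnj10, Kcna4, Kcnq3, Kcnk2). Alternatives were other filters, the median over probe sets, other samples or variance models, array weights, centring, symbols as written, a replicate block and leaving out each array. Leaving out nigral vehicle arrays 1 and 3 together was chosen after seeing the data. Replicate numbers were checked for pairing: deviations of same-numbered arrays correlated at -0.268 to 0.383 in striatum and -0.29 to 0.294 in nigra. Differently numbered arrays correlated at -0.347 to 0.3 and -0.374 to 0.265. The medians were 0.0666 against -0.0399 in striatum and 0.0376 against -0.00724 in nigra. The labels give no pairing by number within a tissue, and so few arrays cannot show whether the numbers share anything.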

Additional observations from a re-analysis of the deposited data

Results flagged for a closer look

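These results stand out because the difference between groups was itself different between the tissues in a direct test (limma over 24 arrays, animal as random block). Values are the striatal minus the nigral log2 difference. For dyskinetic against non-dyskinetic rats this was 1.48 in Kcnk10, which passed the striatal filter only through its dyskinetic arrays. Its adjusted p was 0.0093, or 0.013 with no filter, 0.058 without striatal dyskinetic array 2 and 0.083 with only the 12 arrays of those groups. For lesioned vehicle against intact rats it was 1.51 in Kcnn3, 0.82 in Kcnd3, 0.81 in Kcnab3, 0.81 in Kcne5, 0.73 in Kcng3, 0.64 in Kcnb2 and 0.41 in Kcna3, and on the other side -0.37 in Kcna1, -0.57 in Kcnip2, -0.66 in Kcnq5, -0.68 in Kcnab1, -0.84 in Kcnh3 and -1.09 in Kcng1. Without nigral vehicle arrays 1 and 3 the values of Kcnh3, Kcnip2, Kcnq5, Kcnab1 and Kcnab3 were -0.27 (adjusted p = 0.57), -0.20 (0.44), -0.24 (0.59), -0.41 (0.25) and 0.50 (0.45), and those of Kcna1, Kcna3 and Kcnd3 were -0.38 (0.19), 0.48 (0.11) and 0.64 (0.062).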

How the results depend on the processing

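Of 109 results past the threshold, 48 were never lost under any alternative, 52 were lost on leaving out some array and 0 turned round. Numbers of members past the threshold follow. The share of all genes was not counted under these settings, so a change in number does not show a change relative to all genes. Leaving out each array gave, in striatum, 5 to 13 for dyskinetic against non-dyskinetic rats (13 with all), 3 to 9 for dyskinetic against vehicle (9), 13 to 18 for dyskinetic against intact (19), 0 to 1 for non-dyskinetic against intact (1) and 2 to 3 for vehicle against intact (3). In nigra the same comparisons gave 0 to 1 (1), 1 to 11 (7), 10 to 14 (17), 6 to 9 (8) and 11 to 22 (17), and non-dyskinetic against vehicle 0 to 4 (0). The tissue differences gave 0 to 4 (1) for dyskinetic against non-dyskinetic and 8 to 16 (13) for vehicle against intact. With the median over probe sets, the counts were 7 and 4 for striatal dyskinetic against non-dyskinetic and vehicle, 0 for striatal non-dyskinetic against intact, 2 for nigral dyskinetic against vehicle and 8 for the tissue difference of vehicle against intact. With only the arrays of the groups compared they were 8 for striatal dyskinetic against non-dyskinetic, 0 for striatal non-dyskinetic against intact, 1 for nigral dyskinetic against vehicle and 0 for the tissue difference of dyskinetic against non-dyskinetic. Without the filter, striatal non-dyskinetic against intact gave 0 and nigral dyskinetic against vehicle 3. With the lowest 50% of genes left out, nigral non-dyskinetic and vehicle against intact gave 5 and 11 and the dyskinetic tissue difference 0. With arrays centred, striatal non-dyskinetic against intact gave 0 and nigral dyskinetic against vehicle 4. Array weights gave 5 for striatal vehicle against intact, 26, 4 and 33 for nigral dyskinetic and non-dyskinetic against vehicle and vehicle against intact, and 21 for the vehicle tissue difference. The cause of these shifts was not tested. Without nigral vehicle arrays 1 and 3 the counts were 1 for dyskinetic against vehicle, 8 for vehicle against intact and 5 for the tissue difference.

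A replicate block, for which the labels give no pairing by number, gave 3 for nigral dyskinetic against vehicle and between 0 and 19 elsewhere, within 1.5 times the count without it.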
